A study of Mus musculus with 4 samples.

Results

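The comparison described here set the mean of 3 knockout arrays, Fancd2KO, Foxo3aKO and DKO, against the single WT array, and kept the range of the 3 knockout values beside each mean. These were all 4 arrays of the series. Probe sets with 1 gene symbol were used and the brightest probe set stood for each gene, which gave 22180 genes. A gene was kept when the midpoint of its WT value and its knockout mean reached the floor of 5.51 log2, the median of all gene values, and 11039 genes did so.

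Each array held RNA from sorted bone marrow cells of mice aged 2 months. Fancd2KO mice lacked Fancd2, Foxo3aKO mice lacked Foxo3a (gene symbol Foxo3), DKO mice lacked both, and WT mice carried neither knockout. All 4 populations came from femurs and tibias, were enriched on a Ficoll gradient and were sorted for c-Kit and Sca-1 with lineage antigens and CD34 gated out. The labels call the cells SLAM but list neither CD150 nor CD48. Not given in the sources used here were the knockout alleles, the number and sex of the mice and the number of cells per array.

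The gate sits at the top of the blood hierarchy, where rare long-term stem cells divide seldom and give rise to every blood lineage. Fancd2 works in the Fanconi anaemia pathway, where it repairs crosslinks between DNA strands and protects stalled replication forks, and in people loss of the pathway leads to marrow failure. Foxo3 is a transcription factor that keeps stem cells quiescent and resistant to oxidative stress by inducing cell cycle inhibitors, antioxidant enzymes and autophagy genes.

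The 3 knockout arrays were 3 different genotypes and not replicates, and WT had 1 array, so no difference below has a replicate check. All differences share the WT array, so an error in that array would appear in every one of them. There are 4 ways to set 1 array apart from the other 3, and the smallest one-sided permutation p such a design allows is 0.25, so no p-value is given. Throughout, values are log2 signals, a difference is a knockout value or the knockout mean minus WT, and a 2-fold difference is 1 on the log2 scale. The nearest knockout of a gene is the one of the 3 genotypes closest to WT where all 3 lie on the same side.

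The sorted cells carried transcripts of Kit and of stem cell genes. They also carried those of Cd34 and of mature neutrophils, although the sort gated out CD34 and lineage antigens. Kit, the c-Kit receptor, read 10.41 in Fancd2KO, 10.57 in Foxo3aKO and 10.43 in DKO, against 10.67 in WT. Procr, the endothelial protein C receptor found on stem cells, read 8.03, 7.80 and 8.05 in the same order of knockouts, against 7.89 in WT. All 41 measured genes of a stem cell list were over the floor, and Ly6a was not analysed here. Cd34, the antigen the sort excluded, nevertheless read 10.28 in Fancd2KO, 9.67 in Foxo3aKO and 10.36 in DKO, against 10.79 in WT. Transcripts of mature neutrophils were also bright on every array, with a summed neutrophil signal of 15.42 log2 in Fancd2KO, 16.07 in Foxo3aKO and 15.42 in DKO, against 15.65 in WT.

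The targeted genes did not separate the knockouts from WT as a set. Fancd2 read 6.08 in Fancd2KO, 6.67 in Foxo3aKO and 5.84 in DKO, against 6.56 in WT. It was thus lower in both genotypes that lack Fancd2, by 0.48 and 0.72, and 0.11 higher in Foxo3aKO. Foxo3 read 6.72 in Fancd2KO, 6.64 in Foxo3aKO and 6.51 in DKO, against 6.62 in WT, so the Foxo3 probe set did not tell the Foxo3a knockouts from the other arrays. A probe set that lies outside a deleted part cannot check a label, and the position of the deletions is not known here.

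Across all 11039 genes the knockouts sat close to WT, with a median mean difference of -0.03. The mean was above WT for 4851 genes (43.9%) and below it for 6188 genes (56.1%). It passed 2-fold above WT for 76 genes (0.688%) and 2-fold below for 84 genes (0.761%). Taken 1 genotype at a time, 134 genes (1.21%) were 2-fold higher and 140 (1.27%) 2-fold lower in Fancd2KO, 165 (1.49%) and 139 (1.26%) in Foxo3aKO, and 112 (1.01%) and 177 (1.6%) in DKO.

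Far fewer genes stood 2-fold from WT in each of the 3 knockouts. These were 18 genes (0.163%) that were higher and 30 genes (0.272%) that were lower, of which 13 and 16 were named protein-coding genes and the rest predicted genes, small RNA genes, chemosensory receptors and antigen receptor segments. WT lay below all 3 knockouts, by any amount, for 2209 genes (20.0%) and above all 3 for 3185 genes (28.9%). Counts within lists are to be read against these shares of all genes. Leaving a genotype out loosens the rule by construction. With 2 genotypes required, 36 genes were higher in both without Fancd2KO, 26 without Foxo3aKO and 63 without DKO, and 51, 56 and 49 genes were lower in both under the same omissions.

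The mean alone often hid disagreement among the genotypes. Of the 76 genes higher on the mean, 18 passed 2-fold in all 3 knockouts, 40 in 2 and 18 in 1, and 7 had a knockout on the other side of WT. Of the 84 lower genes, 30 passed in all 3, 44 in 2 and 10 in 1, and 1 had a knockout on the other side. Without the farthest knockout, 41 of the higher and 35 of the lower genes came under 2-fold. The farthest knockout of the higher genes was Fancd2KO for 28, Foxo3aKO for 26 and DKO for 22, whereas for the lower genes it was Fancd2KO for 20, Foxo3aKO for 26 and DKO for 38.

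**Figure D1:**
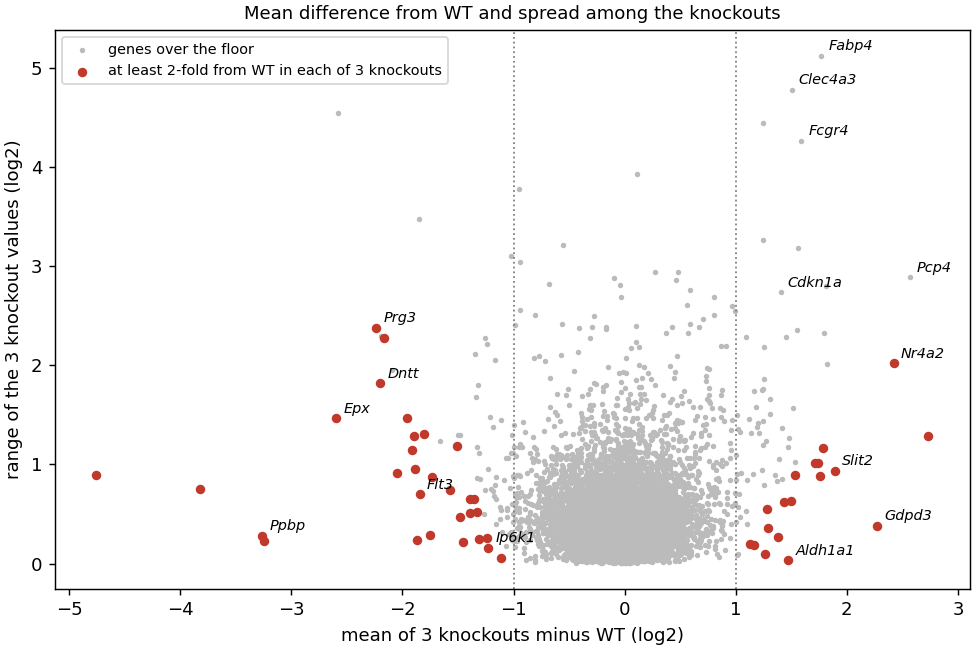
Each grey point is 1 of 11039 genes, with the mean of the 3 knockouts minus WT (log2) on the horizontal axis and the range of the 3 knockout values (log2) on the vertical axis. Red points are the 18 higher and 30 lower genes that stood at least 2-fold from WT in each knockout, and dotted lines mark 2-fold on the mean. Aldh1a1 and Gdpd3 combine a large mean with a narrow range, while Fabp4, Fcgr4 and Clec4a3 have similar means with ranges above 4.

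Of the named protein-coding genes, the widest separation upward belonged to Gdpd3, a lysophospholipase D that makes lysophosphatidic acid. Its level was 8.27 in Fancd2KO, 8.65 in Foxo3aKO and 8.45 in DKO, against 6.18 in WT, a mean difference of 2.27 or 4.84-fold. Even its nearest knockout was 2.09 above WT, much farther than the 3 knockouts lay from each other. Aldh1a1, which oxidises retinaldehyde to retinoic acid and detoxifies aldehydes, had the tightest knockout values of the 18 genes higher in each knockout. It read 8.82 in Fancd2KO, 8.85 in Foxo3aKO and 8.84 in DKO, against 7.36 in WT, a difference of 1.47 or 2.77-fold.

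Genes of cell surface and guidance proteins were among the genes 2-fold higher in each knockout. Slit2, a secreted guidance cue that binds Robo receptors, read 7.17 in Fancd2KO, 7.67 in Foxo3aKO and 6.73 in DKO, against 5.30 in WT. Ncam2, a neural cell adhesion molecule of the immunoglobulin superfamily, read 6.99, 7.01 and 7.09 in Fancd2KO, Foxo3aKO and DKO, against 5.77 in WT. Clec4b2, a C-type lectin receptor of myeloid cells, read 6.08 in Fancd2KO, 6.70 in Foxo3aKO and 7.10 in DKO, against 4.91 in WT. The rule that chose these 3 genes leaves no overlap of a knockout with WT. Slit2 and Clec4b2 were under the floor in WT, and with dim values raised to it their mean differences were 1.68 and 1.12. Their nearest knockouts were then 1.23 and 0.57 above WT, so Clec4b2 was no longer 2-fold higher in each knockout. H2-T10, a nonclassical class I histocompatibility gene with close copies, read 7.38, 7.11 and 7.18 in Fancd2KO, Foxo3aKO and DKO, against 5.85 in WT.

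Regulators of transcription and signalling formed the other main group. Nr4a2, an orphan nuclear receptor induced rapidly by many stimuli, read 9.92 in Fancd2KO, 9.31 in Foxo3aKO and 7.89 in DKO, against 6.62 in WT. Bhlhe40, a basic helix-loop-helix repressor, read 8.96, 8.40 and 7.95 in Fancd2KO, Foxo3aKO and DKO, against 6.70 in WT. Atf3, a stress-induced transcription factor, read 8.48, 8.59 and 7.42 in that order of knockouts, against 6.37 in WT. In all 3 genes DKO was the knockout closest to WT. Sgk1, a serum- and glucocorticoid-induced kinase that phosphorylates FOXO proteins, read 6.50 in Fancd2KO, 6.35 in Foxo3aKO and 6.54 in DKO, against 5.30 in WT. Its mean difference of 1.16 came to 0.96 once the dim WT value was raised to the floor, and its nearest knockout to 0.85, short of 2-fold.

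The remaining named genes with the largest nearest-knockout distance upward were Gstp3 and Sowahc. Gstp3, of the pi class of glutathione S-transferases and with close copies in the mouse, read 6.92 in Fancd2KO, 7.28 in Foxo3aKO and 6.66 in DKO, against 5.52 in WT. Sowahc read 6.46, 6.96 and 7.09 in Fancd2KO, Foxo3aKO and DKO, against 5.33 in WT. That WT value was under the floor, and raised to it the nearest knockout was 0.95 above WT, short of 2-fold. At the edge of the 2-fold rule, Zfp949 and Atf3 lay just inside, with nearest knockouts 1.0 and 1.05 above WT. Lmcd1 and Mrgprx2 lay just outside at 0.96 and 0.95.

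**Figure D2:**
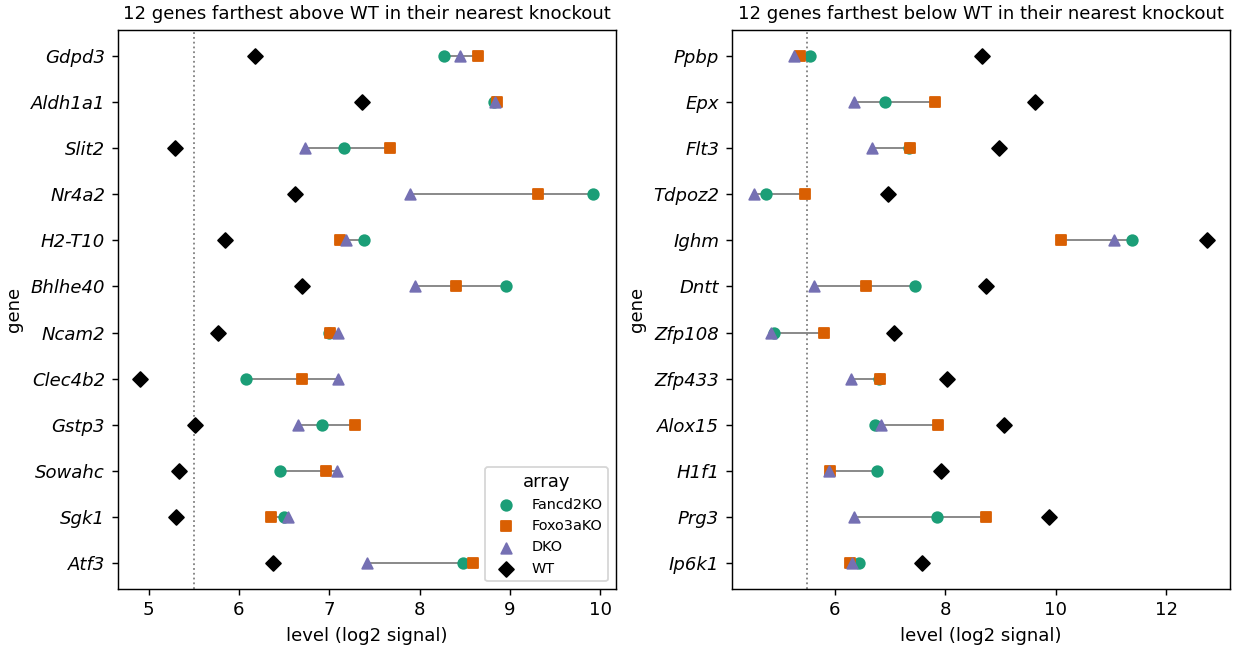
Levels (log2 signal) on each array for the 12 genes whose nearest knockout was farthest above WT (left) and the 12 farthest below WT (right). Coloured symbols are Fancd2KO, Foxo3aKO and DKO joined by a line over their range, the black diamond is WT, and the dotted line is the floor of 5.51. The choice of genes puts all knockouts on 1 side of WT, and Gdpd3 and Ppbp have the widest gaps.

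Among lower protein-coding genes the widest gap was that of Ppbp, pro-platelet basic protein, a chemokine stored in platelet granules. It read 5.55 in Fancd2KO, 5.37 in Foxo3aKO and 5.27 in DKO, against 8.66 in WT, a mean difference of -3.26 or 9.60-fold. The knockout values sat at or near the floor, and the difference was -3.14 with dim values raised to it. The other platelet genes did not share this gap. Over 20 megakaryocyte and platelet genes the median difference was 0.06, with 11 above and 9 below WT on the mean, and Ppbp was the only member past 2-fold. Vwf, which encodes von Willebrand factor, read 7.27 in Fancd2KO, 6.54 in Foxo3aKO and 7.22 in DKO, against 6.19 in WT. Pf4, platelet factor 4, read 7.59, 6.72 and 7.10 in the same order of knockouts, against 7.25 in WT.

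Genes of eosinophil granules made up the list farthest below WT. Epx, eosinophil peroxidase, read 6.92 in Fancd2KO, 7.82 in Foxo3aKO and 6.35 in DKO, against 9.62 in WT, a mean difference of -2.60. Prg3, an eosinophil major basic protein homologue, read 7.84, 8.73 and 6.35 in Fancd2KO, Foxo3aKO and DKO, against 9.88 in WT. Alox15, a lipoxygenase abundant in eosinophils, read 6.72, 7.87 and 6.84 in that order of knockouts, against 9.06 in WT. Foxo3aKO was the knockout nearest to WT in each of these 3 genes. Ear6, an eosinophil-associated ribonuclease with close copies, read 6.94 in Fancd2KO, 8.28 in Foxo3aKO and 6.81 in DKO, against 9.31 in WT. Prg2, the major basic protein itself, read 10.86, 11.54 and 10.69 in Fancd2KO, Foxo3aKO and DKO, against 12.33 in WT.

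Over the 10 eosinophil genes above the floor, the median difference was -1.61, against -0.03 over all genes, with -1.75 in Fancd2KO, -0.88 in Foxo3aKO and -1.93 in DKO. WT lay above all knockouts for 7 of them. On the mean, 6 were 2-fold lower and none higher, and 4 were 2-fold lower in each knockout. Rnase12, a ribonuclease not known as an eosinophil gene, had entered the list from earlier results of these data, and leaving it out, which was decided with the values in view, gave -1.30 over 9 genes. Gata1 and Cebpe, transcription factors that eosinophils share with other lineages, had knockouts on both sides of WT. The summed signal of the 13 measured eosinophil genes was 11.52 log2 in Fancd2KO, 12.30 in Foxo3aKO and 11.42 in DKO, against 13.13 in WT, and 3 of them were under the floor on every array. These RNAs came from sorted populations, in which fewer cells of a type and less RNA per cell cannot be told apart. The part of the eosinophil signal in the other differences from WT was not tested. Mast cell and basophil genes had a median of -0.20 over 9 genes, with none past 2-fold on the mean. Mcpt8, a basophil protease, read 7.60 in Fancd2KO, 9.39 in Foxo3aKO and 6.56 in DKO, against 8.53 in WT.

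Genes of multipotent progenitors and lymphoid priming were also lower in the knockouts. Flt3, a receptor tyrosine kinase that marks progenitors past the long-term stem cell, read 7.34 in Fancd2KO, 7.37 in Foxo3aKO and 6.67 in DKO, against 8.97 in WT. Its mean difference was -1.84, or 3.59-fold. Dntt, the terminal transferase that adds bases at antigen receptor joints, read 7.44, 6.57 and 5.62 in Fancd2KO, Foxo3aKO and DKO, against 8.74 in WT. Ighm, the mu heavy chain constant region, read 11.38, 10.09 and 11.04 in that order of knockouts, against 12.73 in WT, and its second probe set gave a mean difference of -1.45. For these genes every knockout was at least 2-fold below WT. Tespa1, a thymocyte signalling protein, completed the set, at 5.17 in Fancd2KO, 5.42 in Foxo3aKO and 5.82 in DKO, against 6.83 in WT.

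The 21 priming genes above the floor had a median difference of -0.35, with -0.51 in Fancd2KO, -0.20 in Foxo3aKO and -0.59 in DKO. WT lay above all knockouts for 12 and below all for none. The same 4 genes (Dntt, Ighm, Flt3 and Tespa1) were 2-fold lower on the mean and in each knockout. Il7r, the interleukin 7 receptor, read 5.64 in Fancd2KO, 5.54 in Foxo3aKO and 4.89 in DKO, against 6.20 in WT. Satb1, a chromatin organiser of lymphoid cells, had differences of -0.87 in Fancd2KO, -0.35 in Foxo3aKO and -1.29 in DKO. Members on the other side included Cd69, an early activation antigen, with 1.38, 1.18 and -0.27 in Fancd2KO, Foxo3aKO and DKO. The summed signal of the 24 measured genes was 13.20 log2 in Fancd2KO, 13.16 in Foxo3aKO and 13.06 in DKO, against 13.97 in WT. Ighm alone read 12.73 in WT and 11.38, 10.09 and 11.04 in the knockouts, so this sum rests in large part on 1 gene. Ighm is also counted among the immunoglobulin genes below.

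B cell genes had the same median of -0.35 over 15 genes, but DKO lay apart at -1.07, with -0.13 in Fancd2KO and -0.28 in Foxo3aKO. Without DKO the median was -0.21, and without Fancd2KO it was -0.62. Pou2af1, a B cell coactivator, read 7.06 in Fancd2KO, 6.58 in Foxo3aKO and 6.33 in DKO, against 7.84 in WT. Vpreb3, a partner of immature immunoglobulin chains, read 6.07, 5.98 and 5.50 in Fancd2KO, Foxo3aKO and DKO, against 6.97 in WT. These 2 and Ly6d, an antigen of early B-lineage cells, were the members 2-fold lower on the mean, and none was 2-fold lower in each knockout. Cd79a, a signalling chain of the B cell receptor, had differences of -0.75 in Fancd2KO, -0.72 in Foxo3aKO and -1.39 in DKO. Pax5 and Ebf1, the factors that set B cell identity, were close to WT, with mean differences of -0.22 and 0.08.

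Immunoglobulin genes were grouped after their values were seen and lay farther down than any of the 33 lists. Of 20 measured, 12 were above the floor, and their median difference was -1.87, with 11 below WT, 10 of them 2-fold lower on the mean and 6 in each knockout. The kappa variable segment with the largest difference read 4.52 in Fancd2KO, 4.92 in Foxo3aKO and 4.03 in DKO, against 9.25 in WT. All its knockout values were under the floor, and its mean difference of -4.75 came to -3.74 with dim values raised to the floor. Igkv8-30, also under the floor in every knockout, went from -3.25 to -2.11. The group median was taken without raising dim values. Iglv1, a lambda variable segment, read 5.81, 4.88 and 6.18 in Fancd2KO, Foxo3aKO and DKO, against 7.43 in WT. Another kappa segment had a single genotype far from the rest, at 11.72 in Fancd2KO, 7.18 in Foxo3aKO and 11.14 in DKO, against 12.59 in WT. Variable segments share sequence with each other, so single values are uncertain. Jchain, the joining chain that plasma cells add to secreted antibody, read 7.30 in Fancd2KO, 6.89 in Foxo3aKO and 6.79 in DKO, against 8.26 in WT.

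**Figure D3:**
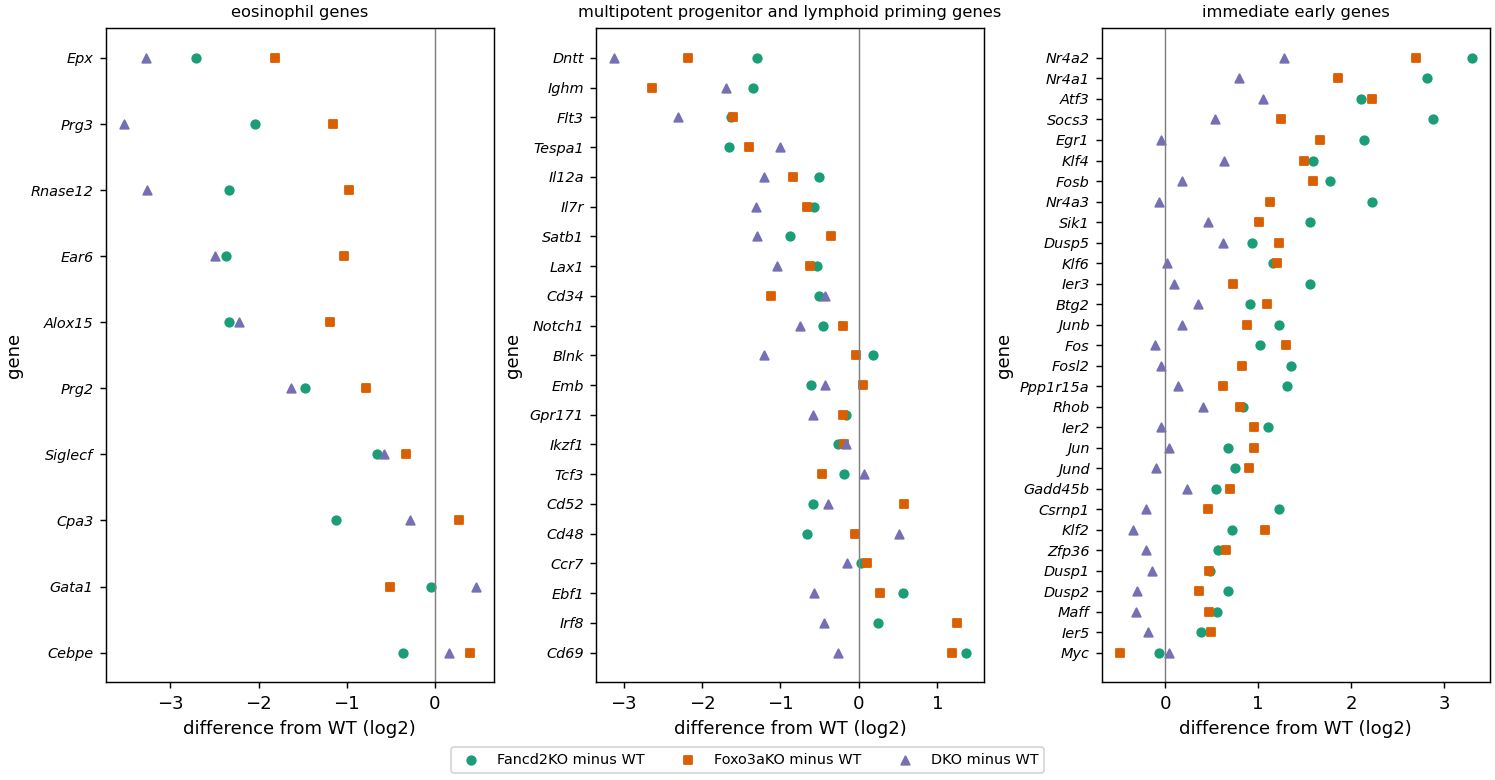
Difference from WT (log2) in Fancd2KO, Foxo3aKO and DKO for every gene above the floor in 3 lists, with the grey line at 0 marking the WT level. Eosinophil genes other than Cpa3, Gata1 and Cebpe and the upper priming genes lie left of WT in all 3 knockouts, whereas immediate early genes other than Myc lie right of WT in Fancd2KO and Foxo3aKO, with DKO nearer to WT.

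Linker and core histone genes were lower as a group. H1f1, a linker histone made in dividing cells, read 6.77 in Fancd2KO, 5.91 in Foxo3aKO and 5.89 in DKO, against 7.92 in WT. H1f5, another linker histone, read 10.92, 10.38 and 10.75 in Fancd2KO, Foxo3aKO and DKO, against 11.80 in WT. Of 13 replication-dependent histone genes above the floor, WT lay above all knockouts for 11, and the median difference was -0.56, with -0.45 in Fancd2KO, -0.59 in Foxo3aKO and -0.49 in DKO. On the mean, 3 were 2-fold lower (H1f1, H1f5 and H2ac15), and H1f1 was so in each knockout. Histone genes have near-identical copies and only 19 of 49 listed were measured, so the members are uncertain singly. Genes for DNA replication and mitosis, which act in the same cycling cells, stood at the level of all genes. DNA replication genes had a median of -0.03 over 37 genes and mitosis genes -0.01 over 36, with none of either past 2-fold on the mean.

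Other genes in the lower set came from varied families. Zfp433, a zinc finger gene, read 6.80 in Fancd2KO, 6.81 in Foxo3aKO and 6.30 in DKO, against 8.04 in WT. Zfp108 read 4.89, 5.80 and 4.85 in Fancd2KO, Foxo3aKO and DKO, against 7.08 in WT. Ip6k1, an inositol hexakisphosphate kinase, read 6.44, 6.28 and 6.31 in that order of knockouts, against 7.57 in WT. Tdpoz2, of a clustered TD and POZ domain family, was lower by 2.05 in the brightest probe set, but the mean of all its probe sets was lower by 0.65. Just inside the 2-fold edge were Tespa1 and Ear6, with nearest knockouts at -1.01 and -1.03, and just outside were Rnase12 and Jchain at -0.97 and -0.96. Rnase12 read 5.37 in Fancd2KO, 6.73 in Foxo3aKO and 4.44 in DKO, against 7.70 in WT.

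Zinc finger genes as a class were examined after Zfp433 and Zfp108 were seen. Of 370 genes named Zfp and a number, 256 were above the floor, with a median difference of -0.16. WT lay above all knockouts for 116 and below all for 19, against 28.9% and 20.0% of all genes. On the mean, 6 were 2-fold lower and 1 was 2-fold higher, against 0.761% and 0.688% of all genes. The higher gene, Zfp949, read 7.74 in Fancd2KO, 7.71 in Foxo3aKO and 7.54 in DKO, against 6.54 in WT. Many of these genes have close copies.

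Immediate early genes, which are transcribed within minutes of a stimulus, had the highest median of all lists. Their median difference was 0.72 over 30 genes, with 1.14 in Fancd2KO, 0.95 in Foxo3aKO and 0.04 in DKO, so both single knockouts lay farther from WT than DKO did. On the mean, 29 of 30 were above WT and 9 were 2-fold higher. WT lay below all knockouts for 16, and only Nr4a2 and Atf3 were 2-fold higher in each. Without DKO the median was 1.02, and without Fancd2KO it was 0.50.

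In the next members described, 2-fold higher on the mean, Fancd2KO was the highest of the knockouts and DKO the lowest. Nr4a1, the nuclear receptor Nur77, read 11.05 in Fancd2KO, 10.09 in Foxo3aKO and 9.03 in DKO, against 8.23 in WT. Egr1, a zinc finger factor with a role in stem cell quiescence, read 10.71, 10.24 and 8.53 in Fancd2KO, Foxo3aKO and DKO, against 8.57 in WT. Klf4, a Krüppel-like factor, read 8.35, 8.25 and 7.40 in that order of knockouts, against 6.76 in WT. In Egr1 the DKO array lay at the WT level. Socs3, an inhibitor of cytokine signalling, had a mean difference of 1.55, but its second probe set above the floor gave 0.31. Myc was the list's 1 member below WT on the mean.

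Genes of inflammation and NF-kB signalling also had higher medians in the single knockouts than in DKO, here with Foxo3aKO highest. Il1r2, the decoy receptor for interleukin 1, read 8.45 in Fancd2KO, 9.72 in Foxo3aKO and 6.92 in DKO, against 6.55 in WT. Ccl2, a monocyte-attracting chemokine, read 7.21, 8.35 and 6.02 in Fancd2KO, Foxo3aKO and DKO, against 5.39 in WT. Nlrp3, an inflammasome sensor, read 6.06, 7.59 and 5.85 in that order of knockouts, against 5.33 in WT. DKO was the knockout nearest to WT in each. The WT value of Nlrp3 was under the floor, and its mean difference of 1.17 came to 0.99 with dim values raised to the floor. Over 25 genes the median difference was 0.32, with 0.56 in Fancd2KO, 0.71 in Foxo3aKO and 0.14 in DKO, and it was 0.54 without DKO. WT lay below all knockouts for 11 and above all for 2, and 3 were 2-fold higher on the mean with none so in each knockout. The summed monocyte signal was 13.07 log2 in Fancd2KO, 13.89 in Foxo3aKO and 14.14 in DKO, against 13.45 in WT, and its part in these values was not tested.

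The type I interferon response ran the other way, with small differences. These genes encode antiviral proteins that interferon receptors switch on through the interferon-stimulated response element. Over 38 genes the median was -0.24, with -0.22 in Fancd2KO, -0.40 in Foxo3aKO and -0.16 in DKO. On the mean, 34 were below WT and 4 above, and none was 2-fold apart. All knockouts lay below WT for 21 and above it for 1. Isg15, a ubiquitin-like modifier, read 6.29 in Fancd2KO, 5.47 in Foxo3aKO and 5.99 in DKO, against 6.72 in WT. Ifit1, which binds viral RNA, read 6.58, 6.24 and 6.27 in Fancd2KO, Foxo3aKO and DKO, against 7.10 in WT. Irf7, a regulator of interferon genes, read 7.18, 6.94 and 7.23 in that order of knockouts, against 7.80 in WT. These 3 genes were picked for the distance of their nearest knockout from WT, so no knockout reached WT by construction. Psmb9, an immunoproteasome subunit, was on the other side, with differences of 0.12 in Fancd2KO, 0.10 in Foxo3aKO and 0.35 in DKO.

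FOXO target genes were examined because 2 of the 3 knockouts lacked Foxo3a, a transcription factor that binds a core of GTAAACA. Over 34 genes the median difference was -0.29, with -0.20 in Fancd2KO, -0.25 in Foxo3aKO and -0.38 in DKO. All knockouts lay below WT for 19 and above it for 5. Txnip, an inhibitor of thioredoxin and of glucose uptake, read 10.14 in Fancd2KO, 10.35 in Foxo3aKO and 10.57 in DKO, against 11.16 in WT. Cdkn1b, which encodes the cyclin-dependent kinase inhibitor p27, read 8.83, 8.46 and 8.34 in Fancd2KO, Foxo3aKO and DKO, against 9.35 in WT. Sesn3, a sestrin that restrains mTORC1, read 7.62, 7.44 and 7.29 in that order of knockouts, against 8.25 in WT. Fbxo32, a ubiquitin ligase of muscle atrophy, had a mean difference of -0.78. These genes were chosen with their values known, mostly for having all knockouts on 1 side of WT. That Fancd2KO, which keeps Foxo3a, lay on that side too is therefore no separate result. Cdkn1a and Klf4 were 2-fold higher on the mean.

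The promoters of Isg15, Ifit1 and Txnip are printed because they hold the letters these pathways are known for. They are RefSeq GRCm38.p6 windows of 250 bases before to 50 after the start, on the gene's strand, at chr4:156200769-156201068 on the minus strand for Isg15, chr19:34640639-34640938 on the plus strand for Ifit1 and chr3:96557707-96558006 on the plus strand for Txnip. Capitals mark the interferon motif in Isg15 and Ifit1, searched as GAAA repeated after 2 bases of any kind, or TTTC repeated likewise on the other strand. In Txnip they mark the FOXO letters GTAAACA, also searched on both strands, and matches were counted without overlap.
Isg15: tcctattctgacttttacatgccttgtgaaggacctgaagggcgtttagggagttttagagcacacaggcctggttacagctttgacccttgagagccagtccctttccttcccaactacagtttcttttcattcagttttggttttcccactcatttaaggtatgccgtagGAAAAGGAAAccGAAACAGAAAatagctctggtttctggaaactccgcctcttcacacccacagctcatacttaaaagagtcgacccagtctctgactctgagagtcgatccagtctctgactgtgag
Ifit1: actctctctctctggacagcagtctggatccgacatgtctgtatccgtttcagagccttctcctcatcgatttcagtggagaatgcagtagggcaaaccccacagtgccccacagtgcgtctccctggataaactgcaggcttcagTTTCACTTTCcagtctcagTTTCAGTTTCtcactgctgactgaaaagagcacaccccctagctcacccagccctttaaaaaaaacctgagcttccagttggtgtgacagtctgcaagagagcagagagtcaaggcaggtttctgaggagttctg
Txnip: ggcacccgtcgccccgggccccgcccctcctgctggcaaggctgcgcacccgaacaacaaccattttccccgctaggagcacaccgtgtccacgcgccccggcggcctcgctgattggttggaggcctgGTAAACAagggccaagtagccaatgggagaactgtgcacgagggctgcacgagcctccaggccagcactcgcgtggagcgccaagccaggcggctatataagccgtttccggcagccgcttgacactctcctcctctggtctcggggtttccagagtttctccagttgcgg
Isg15 and Ifit1 each held the interferon motif at 2 places. The motif was in 15 of 29 interferon genes above the floor that had a window (51.7%), against 3.99% of 27025 genes with a window. The FOXO letters were in 3 of 28 FOXO target genes (10.7%), against 4.05% of all genes. A match describes the letters in the window and not a site of binding.

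Mir99a, the gene of the miR-99a precursor, was singled out after its value was seen, since it had the largest mean difference upward of the microRNA genes and was the only 1 of them 2-fold higher in each knockout. It read 6.52 in Fancd2KO, 7.81 in Foxo3aKO and 7.73 in DKO, against 4.63 in WT, a mean difference of 2.73. The WT value was under the floor, and raised to it the mean difference was 1.85 and the nearest knockout 1.02 above WT. The array probes the precursor and not the mature strands. RefSeq GRCm38.p6 gives the strands at chr16:77598940-77598961 and chr16:77598977-77598997 on the plus strand, with the seed (bases 2 to 8) in capitals here.
mmu-miR-99a-5p: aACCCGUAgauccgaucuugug
mmu-miR-99a-3p: cAAGCUCGuuucuaugggucu
Its host transcript Mir99ahg read 5.60 in Fancd2KO, 6.16 in Foxo3aKO and 5.42 in DKO, against 5.72 in WT, and its cluster partner Mirlet7c-1 was under the floor on all arrays. Over the 113 of 483 microRNA genes above the floor, the median difference was 0.03. On the mean, 9 of them were 2-fold higher and 4 lower, against 0.688% and 0.761% of all genes.

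Stem cell genes as a list stayed near WT, with a median of -0.07 over 41 genes and -0.03 over all genes. WT lay above all knockouts for 12 of them and below all for 6, against 28.9% and 20.0% of all genes. Hoxb4, a homeobox gene of stem cell expansion, read 6.70 in Fancd2KO, 6.58 in Foxo3aKO and 6.95 in DKO, against 7.68 in WT. Hoxa9, of the same family, read 7.18, 6.70 and 6.90 in Fancd2KO, Foxo3aKO and DKO, against 7.67 in WT. Slamf1, which encodes CD150, read 8.36, 7.51 and 7.81 in that order of knockouts, against 7.25 in WT. Both Hox genes were thus below WT, while Slamf1 and Vwf, named above with the platelet genes, were above it in every knockout. Socs2, a suppressor of growth hormone and cytokine signals, had a mean difference of 1.39 in its brightest probe set and 0.28 in its second. Among 12 sorting antigens above the floor the median was -0.14, and Flt3 was the only 1 past 2-fold.

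For the monocyte and macrophage genes the knockouts did not stand on the same side of WT. Their median was -0.48 in Fancd2KO, 0.50 in Foxo3aKO and 1.0 in DKO. The median of the mean difference was 0.37 over 24 genes, and it was 0.01 without DKO. Fcgr4, an activating receptor for antibody, read 5.71 in Fancd2KO, 6.78 in Foxo3aKO and 9.97 in DKO, against 5.90 in WT. Clec4a3, a C-type lectin receptor with close copies, read 6.40, 8.44 and 11.17 in Fancd2KO, Foxo3aKO and DKO, against 7.17 in WT. Cd300e, an activating receptor of monocytes, read 5.95, 6.04 and 9.13 in that order of knockouts, against 5.48 in WT. In each of these the 2-fold mean rested on DKO, and without it the mean differences were 0.35 for Fcgr4, 0.25 for Clec4a3 and 0.52 for Cd300e. Likewise Clec4a1 came to 0.04 and Bcl2a1a, an anti-apoptotic gene with close copies, to 0.30. Bcl2a1a was under the floor in WT and Fancd2KO, and with dim values raised to it the mean difference over all 3 knockouts was 0.905, short of 2-fold. Fabp4, a fatty acid binding protein, had differences of 2.31 in Fancd2KO, -1.06 in Foxo3aKO and 4.06 in DKO, with a mean of 0.62 without DKO. Its Foxo3aKO and WT values were both under the floor. These 6 had the widest ranges among the named genes 2-fold apart on the mean. Spic, a factor of red pulp macrophages, was the list's member 2-fold lower on the mean, at -1.01. With dim values raised to the floor it came to -0.87, short of 2-fold.

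Neutrophil genes split the genotypes in another way, with a median of -0.32 in Fancd2KO, 0.46 in Foxo3aKO and -0.33 in DKO, and -0.06 for the mean over 27 genes. Ly6g, the antigen of mature neutrophils, read 8.40 in Fancd2KO, 10.47 in Foxo3aKO and 7.96 in DKO, against 9.75 in WT. Elane, neutrophil elastase of immature granules, read 10.72, 10.79 and 11.11 in Fancd2KO, Foxo3aKO and DKO, against 10.11 in WT. Ly6g thus put Foxo3aKO alone above WT, whereas Elane was above WT in all 3.

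Cell cycle and damage genes showed a few large differences within lists that stayed near WT. Those of Cdkn1a and Plk2 were largest in Fancd2KO, and that of Plk2 was nearly as large in Foxo3aKO. Cdkn1a, which encodes the cyclin-dependent kinase inhibitor p21 and is a p53 target, read 10.22 in Fancd2KO, 8.14 in Foxo3aKO and 7.48 in DKO, against 7.21 in WT. Without Fancd2KO its mean difference was 0.60, against 1.40 with it. Plk2, a polo-like kinase induced by p53, read 8.93, 8.61 and 7.75 in Fancd2KO, Foxo3aKO and DKO, against 6.96 in WT. Over 22 p53 target genes the median was 0.05, with 14 above and 8 below WT on the mean, and over 17 cell cycle inhibitors and quiescence genes it was 0.18, with 12 above and 5 below. Xpc, a damage sensor of nucleotide excision repair, had differences of -0.57 in Fancd2KO, -0.68 in Foxo3aKO and -0.61 in DKO.

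The DNA repair genes that act with Fancd2 lay near WT. The median over 28 Fanconi anaemia and homologous recombination genes was -0.02, with 13 above and 15 below WT on the mean and none past 2-fold. WT lay above all knockouts for 10 and below all for 7, against 28.9% and 20.0% of all genes. Fance, a subunit of the Fanconi core complex, was lower in each, with differences of -0.35 in Fancd2KO, -0.20 in Foxo3aKO and -0.61 in DKO. Ube2t, the ubiquitin-conjugating enzyme of the pathway, had -0.30, -0.37 and -0.24 in the same order. On the other side Brip1, the helicase FANCJ, had differences of 0.31, 0.69 and 0.55 in Fancd2KO, Foxo3aKO and DKO.

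Stress and metabolic lists stood close to the level of all genes. The median difference was 0.02 over 25 antioxidant genes, -0.03 over 30 autophagy genes, -0.02 over 46 respiratory chain genes and 0.09 over 26 glycolysis and hypoxia genes, with no member of these 4 lists past 2-fold on the mean. Of the antioxidant genes, WT lay below all knockouts for 8 and above all for 5. Gclm, a subunit of the enzyme that starts glutathione synthesis, was higher in each knockout, with differences of 0.41 in Fancd2KO, 0.24 in Foxo3aKO and 0.38 in DKO. Gpx1, a glutathione peroxidase, had 0.18, 0.12 and 0.14 in the same order. Txnrd2, the mitochondrial thioredoxin reductase, was lower by 0.44 on the mean, with differences of -0.45 in Fancd2KO, -0.44 in Foxo3aKO and -0.44 in DKO. Cat, catalase, had -0.20, -0.49 and -0.62 in Fancd2KO, Foxo3aKO and DKO. Cytosolic ribosomal protein genes had a median of -0.09 over 41 genes, with WT above all knockouts for 17 and below all for 3. Heat shock genes had a median of 0.05 over 22 genes, and Hspa1b, an inducible HSP70 gene with a near-identical copy, was the only 1 past 2-fold, at 8.55 in Fancd2KO, 9.87 in Foxo3aKO and 8.77 in DKO, against 7.85 in WT.

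Signalling, niche and developmental lists also had small medians. TGF-beta feedback, Id and Notch genes had 0.11 over 22 genes. Skil, a repressor of SMAD signalling, was the list's member 2-fold higher on the mean, with differences of 1.82 in Fancd2KO, 1.32 in Foxo3aKO and 0.44 in DKO. Adhesion and niche retention genes had 0.05 over 24 genes and imprinted genes 0.02 over 12, with none of either past 2-fold on the mean. Neural transcripts had 0.21 over 8 genes. Their member Pcp4, a calmodulin-binding protein of Purkinje cells, had a mean difference of 2.56. It read 8.67 in Fancd2KO, 8.09 in Foxo3aKO and 5.78 in DKO, against 4.95 in WT, so its nearest knockout, DKO, was 0.83 above WT. Its WT value was under the floor, and raised to it the mean difference was 2.01 and the nearest knockout 0.27 above WT.

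The other lineages gave few differences shared by all genotypes. Erythroid genes had a median of -0.11 over 23 genes, with -0.30 in Fancd2KO, -0.50 in Foxo3aKO and 0.12 in DKO, and -0.43 without DKO. Hemgn, an erythroid and stem cell nuclear protein, was below WT in each knockout, by 0.58, 1.02 and 0.66. Dendritic cell genes had -0.17 over 13 genes, and both members 2-fold lower on the mean, Flt3 and Ly6d, belong to other lists as well. T and NK cell genes had 0.11 over 8 genes. Cd3d, a chain of the T cell receptor complex, read 6.89 in Fancd2KO, 8.64 in Foxo3aKO and 7.40 in DKO, against 6.40 in WT. Endothelial and stromal genes had -0.12 over 13 genes, and Pdgfrb, a pericyte receptor, was the member 2-fold lower, at 5.69 in Fancd2KO, 5.28 in Foxo3aKO and 4.80 in DKO, against 6.26 in WT. Foxo3aKO and DKO were under the floor there, and with dim values raised to it the mean difference was -0.69, short of 2-fold.

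**Figure D4:**
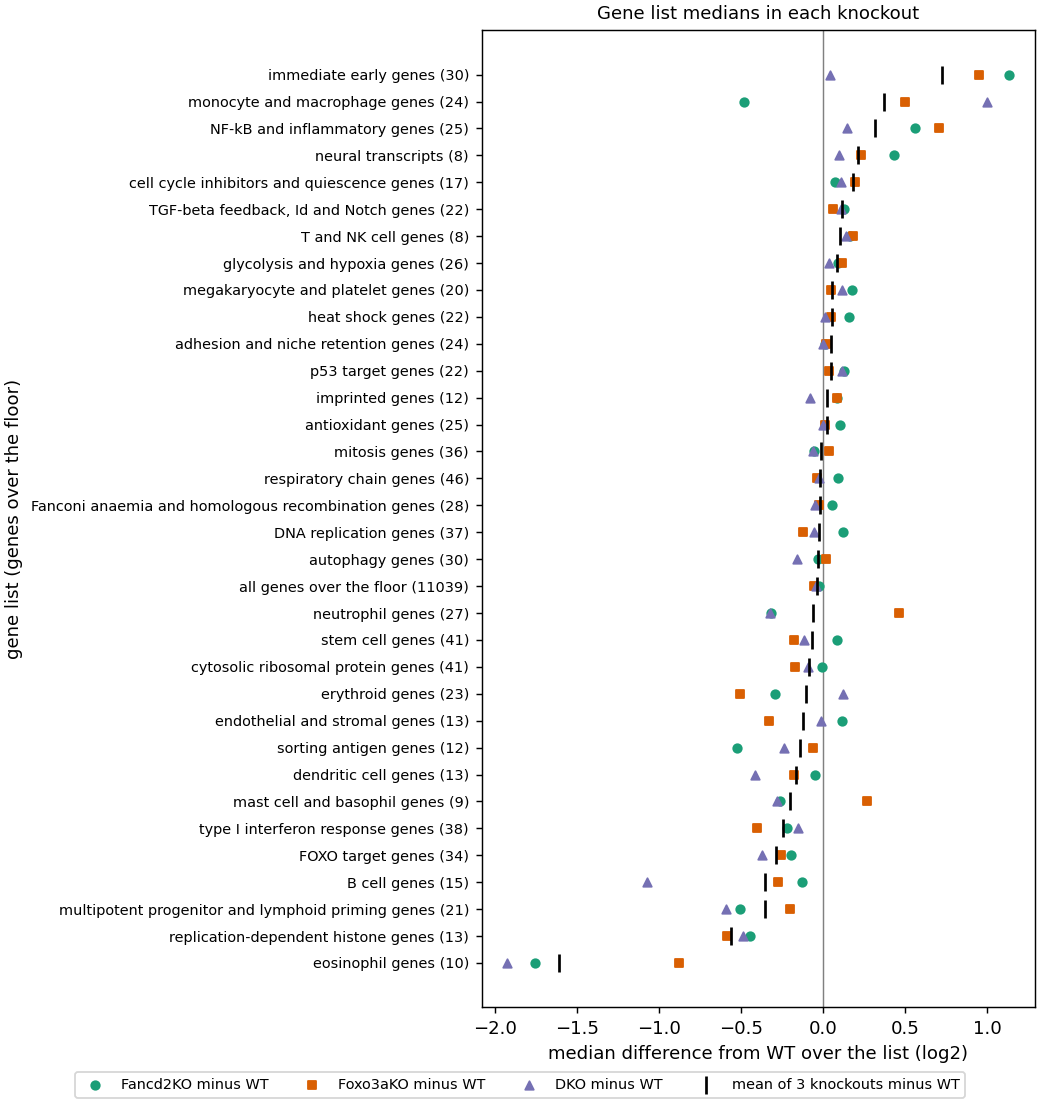
Median difference from WT (log2) over the genes above the floor of each of 33 lists and of all 11039 genes, with the number of genes in brackets. Coloured symbols are the medians in Fancd2KO, Foxo3aKO and DKO, and the black bar is the median of the mean difference. The eosinophil list has all 3 genotypes lowest, the immediate early list has DKO at 0.04 while the other two lie near 1, and the monocyte list has Fancd2KO and DKO on opposite sides of WT.

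A second probe set gave a check on single values. For 554 genes with a second probe set above the floor, its mean difference departed from that of the brightest with an SD of 0.35, and 95% of departures were under 0.70. Of the 7 genes 2-fold apart on the mean whose second probe set was above the floor, all 7 had the same sign in both and 4 were 2-fold in both. Probe sets of a gene were read on the same 4 arrays and do not check the arrays.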

How the data were processed

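RNA of 4 sorted populations was hybridised to whole-transcript mouse arrays (Mouse Gene 2.0 ST), 1 array per genotype. The deposited values are log2 signals that the authors made with Expression Console from Affymetrix, as the submitters' processing notes name it. Its version and settings, and the build behind the probe sets, are not given in the sources used here. Of 41345 probe sets, 23521 carried 1 gene symbol in the platform annotation, 1814 carried several and 16010 none. The brightest probe set by the mean of the 4 arrays stood for each of 22180 genes.

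WT was subtracted from each knockout and from the knockout mean. Genes under the floor at the midpoint of WT and the knockout mean were left out of counts. This rule favours neither direction; a floor on the highest array was tried as an alternative. No test was run, because no genotype had a second array, and the 4 arrays limit the precision. Arrays had medians of all gene values between 5.48 and 5.54, and pairs of arrays correlated at 0.96 to 0.97 across all probe sets. The code that makes the calls was run on simulated arrays, which checks the code only. That run cannot show whether the calls on the real arrays are right, because the spread within a genotype is not known here.

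Genes were named by rule: Fancd2 and Foxo3, the 12 in each direction with the largest nearest-knockout and the largest mean differences, the 6 with the widest range, and leading and opposite members of each of 33 lists. Not every gene the rule named is reported here. Other genes described sit at a threshold or were chosen from the lists after their values were seen. Members and lists were chosen with earlier results of these data known. Promoter and microRNA sequences are RefSeq GRCm38.p6. Python 3.11.15, numpy 2.4.6, pandas 2.3.3 and matplotlib 3.10.9 were used. Alternatives were quantile normalisation, median centring, other floors, the mean of all probe sets, the median of the knockouts, other fold thresholds and leaving out each knockout.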

Additional observations from a re-analysis of the deposited data

Results flagged for a closer look

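Neutrophil genes stood on opposite sides of WT in different genotypes, with a list median of 0.46 in Foxo3aKO and -0.33 in DKO. The difference between the genotypes was not tested.

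Monocyte and macrophage genes had a list median of 1.0 in DKO and -0.48 in Fancd2KO, again on opposite sides of WT, and this difference was not tested.

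Fabp4, a fatty acid binding protein, was 4.06 above WT in DKO and 1.06 below it in Foxo3aKO (a difference of -1.06). Its Foxo3aKO and WT values, 4.10 and 5.16, were both under the floor, so with dim values raised to it they would be equal. Fabp4 is 1 of 12 genes above the floor at the midpoint with a knockout 2-fold higher and another 2-fold lower. The difference between genotypes was not tested.

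Probe sets without a single gene symbol were not part of the comparisons. Of 17634 such probe sets, 7406 were above the floor, and 105 of them were 2-fold higher and 86 were 2-fold lower in each knockout. Of the 11039 genes above the floor 18 and 30 were, so these probe sets passed the rule more often than the genes did. They carry several symbols or none, so no gene is named for them.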

How the results depend on the processing

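Across 12 alternatives, 46 of 64 recomputed counts stayed within 1.5 times the reported count, and no named gene 2-fold apart on the mean and no list with a median beyond 0.25 in size changed sign. Of the list medians, 27 moved by more than the SD of the 3 genotypes and 304 by less, and of the values of named genes, 16 moved by more and 1484 by less. With no floor, 122 genes were 2-fold higher and 132 lower on the mean, 55 were lower in each knockout, and WT lay below all knockouts for 5693 genes and above all for 5365. The eosinophil list then had a median of -0.88 over all 13 measured genes, which adds 3 dim ones. At 1.5-fold, 290 genes were higher and 453 lower on the mean, and 87 and 152 in each knockout. At 3-fold these were 14 and 23, and 2 and 8. Leaving out each knockout in turn gave 82 to 108 genes higher and 93 to 110 lower on the mean, 26 to 63 higher and 49 to 56 lower in each remaining knockout, and WT below all for 3020 to 3206 genes and above all for 4081 to 4355; these counts need 2 genotypes in place of 3.

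With dim values raised to the floor, 13 genes were 2-fold higher and 29 lower in each knockout. On the mean, Clec4b2 then came to 1.12, Sgk1 to 0.96 and Tdpoz2 to -1.46. The cause is the construction, since their lower values were under the floor. Tdpoz2 came to -0.65 with all probe sets averaged. No paired analysis was possible because each genotype had 1 array. The 1 WT array enters every value, and no setting can leave it out. Neither the spread within a genotype nor a difference near the probe set disagreement of 0.35 can be judged with these arrays.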

Other observations

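Small nucleolar RNA genes, which guide the chemical modification of ribosomal and other RNA, were grouped after their values were seen. Of 73 measured, 63 were above the floor, with a median difference of -0.16. WT lay above all knockouts for 22 and below all for 13, against 28.9% and 20.0% of all genes. In each knockout, 4 were 2-fold lower and 1 was 2-fold higher, against 0.272% and 0.163% of all genes. These short genes often lie in introns of host genes, and their probe sets were not checked against the hosts.

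Some of the genes described are neighbours in the RefSeq gene table of GRCm38.p6. Prg2 and Prg3 had 0 protein-coding genes between them, as did Clec4a1 and Clec4a3, and Clec4a3 and Clec4b2 had 3. The Prg genes were below WT in all 3 knockouts, at mean differences of -1.30 and -2.24, while Clec4a1 and Clec4a3 stood highest in DKO.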
